A study of Homo sapiens with 6 samples.

Results

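ATP-binding cassette (ABC) transporters were the genes under study, taken from the deposited expression table as every row whose gene name begins with ABC, a subfamily letter from A to G and a number. This gave 12 of the table's 4439 genes. Of these 12, 10 were protein-coding genes and 2 were pseudogenes of ABCC6. A human symbol table lists 46 names of this form, leaving out those with a pseudogene or antisense suffix, so 36 of these names were not analysed here. Whether each of the 46 encodes a protein was not checked.

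ABC transporters are membrane proteins that use ATP to move substrates across a bilayer, usually outwards. The efflux pumps of the B, C and G subfamilies carry drugs and their conjugates and are known for multidrug resistance of tumour cells. The A subfamily moves lipids, in the lung including the lipids of surfactant. Osimertinib, an inhibitor of mutant EGFR, is itself a known substrate of the pumps encoded by ABCB1 and ABCG2.

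The libraries came from HCC827, an EGFR-mutant human cell line of lung adenocarcinoma. RNA sequencing covered 3 libraries of the parental line, which is sensitive to osimertinib, and 3 of its resistant derivative HCC827OR. The derivative was grown for 1 month at each of 10, 50, 100 and 500 nM osimertinib, followed by 1 and 5 µM for the same time. Both lines share the HCC827 background, HCC827OR is a single selected line, and whether it was 1 clone or was in drug at harvest is not stated. The labels do not tell whether a line's libraries were separate cultures, so errors and p-values cover library spread that may be technical only. The lines are called parental and resistant below.

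Every gene of the table had been called different by the authors, at an adjusted p under 0.05 and a log2 change of 1 or more in size. That an ABC gene is present therefore carries its difference with it, and the tests below give sizes and errors rather than independent evidence. The values are a normalized expression signal whose unit is not named, so levels of different genes are not compared and depth is unknown. Epithelial markers fell in 9 of 9 tested (their summed signal was 6790 to 8389 in parental and 2163 to 2206 in resistant libraries). Mesenchymal markers rose in 6 of 6 tested (185 to 232 against 1587 to 1721). Of 10 markers listed for each, 9 epithelial and 7 mesenchymal ones were in the table. Over all genes tested, 45.0% were called lower and 52.5% higher. GRHL2, ESRP1, LUM and DCN passed the filter of the test only through the line in which they were high. Of 2 endothelial markers in the table, PECAM1 fell (4.95 to 10.1 against 0.89 to 1.46), and VWF, too low to be tested, was at 0 to 0.02 in parental and 0.06 to 0.1 in resistant libraries. None of 5 leukocyte markers was in the table. Of 5 retina markers, looked for because the extraction protocol speaks of retinas, RPE65 was present, at 0.49 to 1.08 in parental and 0.25 to 0.3 in resistant libraries. The part of these shifts in the results below was not tested. Parental library 3 stood apart from its line, its sum over the table being 145175 against 120825 and 115790 in parental libraries 1 and 2. The sums of resistant libraries 1 to 3 were 151604, 149956 and 152065, above every parental one.

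Of the 12 ABC rows, 9 had a signal of at least 1 in at least 3 libraries and were tested with limma over the whole table. The test called 7 of these 9 higher and 2 lower in the resistant line, at a Benjamini-Hochberg adjusted p below 0.05. Over all 3332 genes tested, 97.5% were called, 52.5% higher and 45.0% lower. Only the ABC share called in either direction is near that of all genes tested. The 7 higher rows include the 2 pseudogenes of ABCC6, and their split by direction was not tested. ABCC9, ABCC6P1 and ABCC6P2 passed the filter through the resistant libraries, in which they were high, and had to differ. The 3 rows with too low a signal to be tested were ABCG2, ABCA4 and ABCG4. In bulk RNA, fewer expressing cells and less RNA per cell cannot be told apart. In 11 of the 12 rows the libraries of the lines did not overlap, as in 95.2% of the table's genes, and ABCA4 was the exception. The median log2 fold change of the 9 tested rows was 1.10, beside 0.74 over all genes tested, and the median absolute change was 1.14 beside 1.32. The 0.74 depends on the filter, being 0.32 with none and -0.69 with a minimum signal of 5 in 3 libraries.

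**Figure D1:**
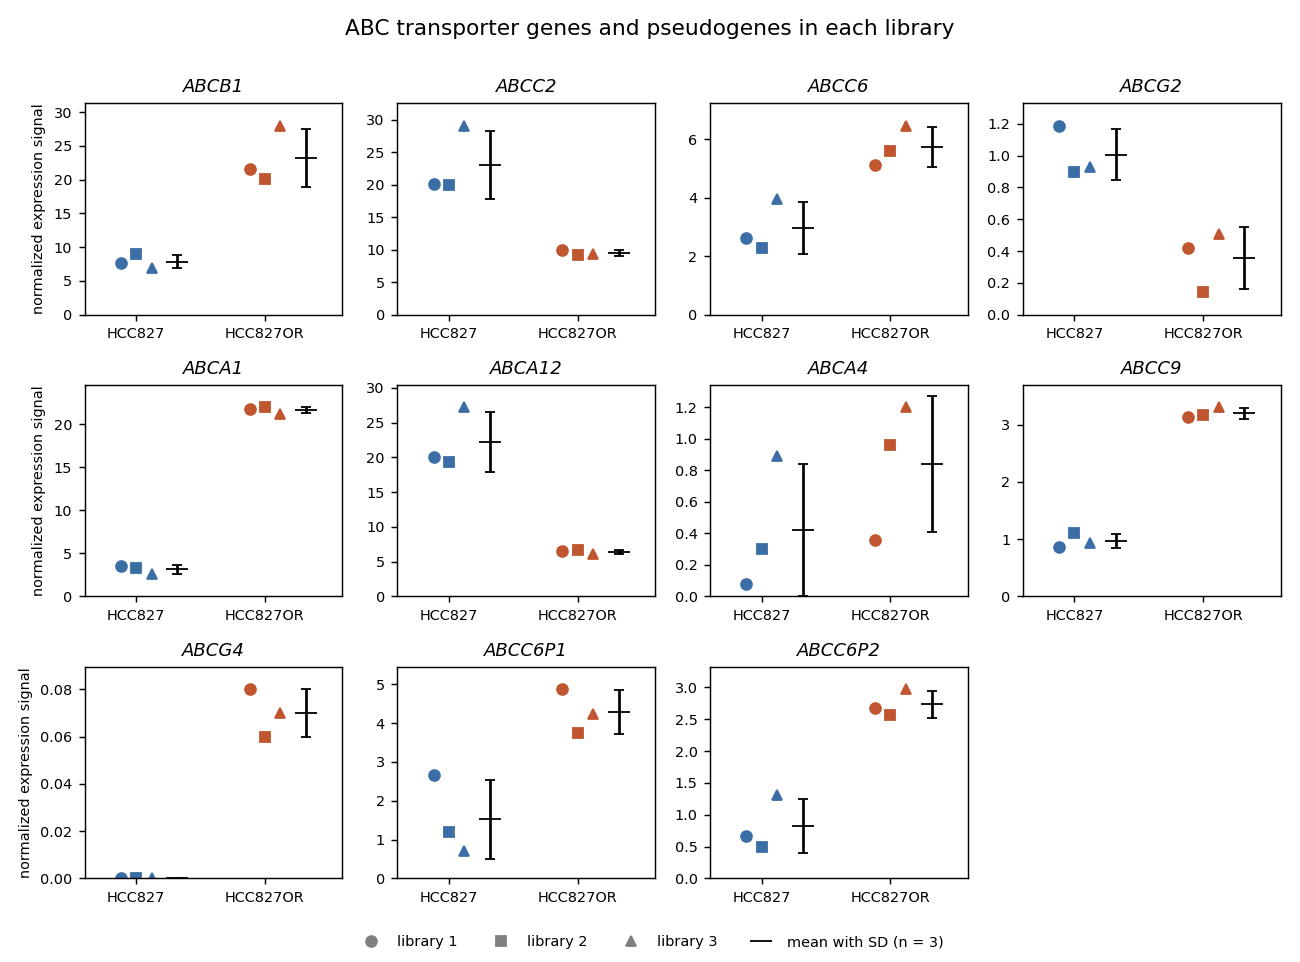
Normalized expression signal (linear axis from 0, a separate scale in each panel) of 11 ABC rows in the 3 HCC827 and 3 HCC827OR libraries, with the mean and SD of n = 3. ABCB1 and ABCA1 sit higher in every resistant library, ABCC2, ABCG2 and ABCA12 sit lower, and ABCA4 overlaps between the lines.

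Among the drug efflux pumps the 2 that are best known for carrying osimertinib went opposite ways in signal. ABCB1 rose 2.95-fold in the resistant line, while ABCG2 had a signal near 1 in the parental line and 2.82-fold lower in the resistant one. ABCC2 fell 2.42-fold, and ABCC6, less clearly a drug pump and sharing sequence with its pseudogenes, rose 1.94-fold.

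ABCB1 encodes P-glycoprotein, also called MDR1, a pump of wide substrate range (ENSG00000085563; chromosome 7, 87503633 to 87713323 of GRCh38, minus strand). Its signal was 7.66, 8.95 and 6.96 in parental libraries 1 to 3 and 21.53, 20.03 and 28 in resistant libraries 1 to 3. The lowest resistant library lay above the highest parental one, and resistant library 3 was the highest of the 6. The means were 7.86 ± 1.01 and 23.2 ± 4.24 (SD, n = 3 per line). On log2(value + 1) limma put the change at 1.44 (SE 0.167, adjusted p = 1.42e-04). Without resistant library 3 the ratio of means was 2.64.

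RefSeq gives ABCB1 2 starts. The stretch before the downstream one, at base 87600884, is shown because ABCB1 is the pump known for osimertinib that rose. Within 50 bases of it 0 of 11 GENCODE transcripts start, the nearest starting 189 bases away, and annotated exons cover 194 of the 250 bases. The 250 bases before that start hold 2 CCAAT boxes (the letters CCAAT on either strand, known to be bound by NF-Y) and 1 AP-1 site (TGANTCA), which meets the upstream CCAAT box at base 234. Of 35116 RefSeq promoters, 32.0% held CCAAT and 6.57% held TGANTCA in the same window. The bases that no annotated exon covers are chr7:87601079-87601134, and 30 bases around the other CCAAT box, read as ATTGG on this strand, are chr7:87600946-87600975 (both RefSeq, GRCh38.p14, minus strand, 5′ to 3′, motifs in capitals).
ABCB1 upstream: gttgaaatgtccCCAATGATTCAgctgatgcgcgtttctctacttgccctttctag
ABCB1 CCAAT box: gtggtgaggctgATTGGctgggcaggaaca
The same window before the upstream start, at base 87713295, held none of the 6 motifs searched. Within 50 bases of that start 4 of 11 GENCODE transcripts start. The downstream window holds neither a GC box (GGGCGG) nor an E-box of the letters CACCTG, the kind known to be bound by ZEB and SNAI factors.

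ABCG2 encodes BCRP, a pump of the plasma membrane that works as a dimer (ENSG00000118777; chromosome 4, 88090264 to 88231322, minus strand). Its signal was 1.19, 0.9 and 0.93 in the parental libraries against 0.42, 0.14 and 0.51 in the resistant ones. The highest resistant library was below the lowest parental one. The means were 1.01 ± 0.159 and 0.357 ± 0.193, but the gene was too low for the test with its filter. With no filter the log2 fold change on log2(value + 1) was -0.57 (limma adjusted p = 0.00505). In the authors' deposited table ABCG2 was 3.30-fold lower (adjusted p = 0.00219).

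ABCC2 encodes MRP2, which exports glutathione, glucuronide and sulfate conjugates at apical membranes (ENSG00000023839; chromosome 10, 99782640 to 99852594, plus strand). Its signal was 20.1, 20.03 and 29.12 in the parental libraries against 10.02, 9.15 and 9.39 in the resistant ones. Every resistant library lay below every parental one, and parental library 3 was the highest. The means were 23.1 ± 5.23 and 9.52 ± 0.449, and limma put the change at -1.17 on log2(value + 1) (SE 0.170, adjusted p = 4.16e-04). Without parental library 3 the fall was 2.11-fold. Its promoter is shown because this is the tested efflux pump that fell. None of the 6 motifs searched was found in it, and it is printed in lower case throughout (chr10:99782390-99782639, RefSeq, GRCh38.p14, plus strand).
ABCC2 upstream: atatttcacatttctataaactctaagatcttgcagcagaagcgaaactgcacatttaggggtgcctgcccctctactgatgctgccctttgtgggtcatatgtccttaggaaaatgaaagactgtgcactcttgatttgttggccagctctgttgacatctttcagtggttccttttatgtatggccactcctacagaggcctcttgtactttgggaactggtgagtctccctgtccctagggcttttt

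ABCC6 encodes MRP6, a liver and kidney transporter whose loss causes ectopic mineralization (ENSG00000091262; chromosome 16, 16148928 to 16223522, minus strand). Its signal was 2.61, 2.28 and 3.96 in the parental libraries against 5.11, 5.6 and 6.46 in the resistant ones. The lines did not overlap, with parental library 3 nearest to the resistant values. The means were 2.95 ± 0.890 and 5.72 ± 0.683, and limma put the change at 0.79 on log2(value + 1) (SE 0.196, adjusted p = 0.00596), the smallest of the 9 tested rows.

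The pseudogenes of ABCC6 lie on the same chromosome and share its sequence. Of the 50-base words in ABCC6P2 transcripts, 67.6% also occur in ABCC6, and of those in ABCC6P1 35.2% do. Of the words in ABCC6 itself, 18.2% occur in another gene. ABCC6P1 (chromosome 16, 18571162 to 18598328) was at 2.67, 1.2 and 0.7 in the parental libraries and at 4.87, 3.75 and 4.24 in the resistant ones, which is 2.81-fold higher (limma adjusted p = 0.00585). Parental library 1 was the highest of its line, and without that library the rise was 4.51-fold. ABCC6P2 (chromosome 16, 14820792 to 14824702) had 0.66, 0.5 and 1.31 against 2.67, 2.56 and 2.97, a rise of 3.32-fold (limma adjusted p = 9.31e-04). How the authors' counting split reads between these 3 genes is not given, so their separate values are uncertain. By the same measure ABCB1 shares 2.02% of its words with another gene, ABCB4, and ABCC2 shares 0.349% with any. ABCA1, ABCA4, ABCG2 and ABCG4 share none.

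Among lipid transporters of the A subfamily ABCA1 rose 6.84-fold, ABCA12 fell 3.47-fold and ABCA4 was low in both lines. ABCA1 had the largest change of the 9 tested rows.

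ABCA1 exports cholesterol and phospholipid to apolipoprotein A-I, the first step of high-density lipoprotein formation (ENSG00000165029; chromosome 9, 104781002 to 104928237, minus strand). Its signal was 3.57, 3.35 and 2.58 in the parental libraries against 21.79, 21.95 and 21.23 in the resistant ones. The resistant libraries lay close together and far above the parental ones. The means were 3.17 ± 0.520 and 21.7 ± 0.378, and limma put the change at 2.45 on log2(value + 1) (SE 0.142, adjusted p = 6.05e-06).

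ABCA1 is a known target of LXR, a nuclear receptor that senses oxysterols and binds direct repeats of the letters AGGTCA with 4 bases between. Its promoter is shown for that element. With up to 2 letters allowed to differ from this repeat on either strand, the ABCA1 promoter held 1 match, 69 to 54 bases before the start, and 2.03% of RefSeq promoters held one. Of the other ABC rows ABCC6 held a match too, at 1 site that lies 162 to 147 bases before one RefSeq start and 139 to 124 before another. The ABCA1 promoter also held 3 GC boxes (GGGCGG, in 42.6% of promoters), 1 E-box CACCTG (17.5%) and 1 E-box CACGTG (6.34%). The bases covered by no annotated exon are chr9:104928238-104928405, and the 30 bases around the repeat are chr9:104928202-104928231 (both RefSeq, GRCh38.p14, minus strand, 5′ to 3′, motifs in capitals).
ABCA1 upstream: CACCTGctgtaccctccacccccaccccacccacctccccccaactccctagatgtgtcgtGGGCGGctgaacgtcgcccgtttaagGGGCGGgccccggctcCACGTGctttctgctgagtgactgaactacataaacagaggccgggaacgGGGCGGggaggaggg
ABCA1 repeat: caggcttTGACCGATAGTAACCTctgcgct
The repeat lies on the opposite strand and is read here as its complement.

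ABCA12 moves ceramide lipids into lamellar granules of the epidermis (ENSG00000144452; chromosome 2, 214931542 to 215138428, minus strand). Its signal was 20.04, 19.4 and 27.18 in the parental libraries against 6.53, 6.62 and 6.07 in the resistant ones. The lines did not overlap, and parental library 3 lay farthest from the resistant values. The means were 22.2 ± 4.32 and 6.41 ± 0.295, and limma put the change at -1.63 on log2(value + 1) (SE 0.159, adjusted p = 6.16e-05). Without parental library 3 the fall was 3.08-fold. The stretch before 1 of its 2 RefSeq starts is shown beside that of ABCA1, the lipid transporter that moved the other way. The start at base 215138626 lies 198 bases from the nearest GENCODE start, and 0 of 3 GENCODE transcripts start within 50 bases of it. Its window held 1 E-box CACCTG, 22 to 17 bases before that start, and none of the other motifs searched. The start at base 215032086 lies inside the annotated gene and coincides with the start of 1 of 3 GENCODE transcripts. It is preceded by chr2:215032087-215032336 (RefSeq, GRCh38.p14, minus strand, 5′ to 3′). This internal window holds 1 CCAAT box, read as ATTGG, and 1 E-box CACGTG, both in capitals, and no match to the LXR repeat.
ABCA12 upstream: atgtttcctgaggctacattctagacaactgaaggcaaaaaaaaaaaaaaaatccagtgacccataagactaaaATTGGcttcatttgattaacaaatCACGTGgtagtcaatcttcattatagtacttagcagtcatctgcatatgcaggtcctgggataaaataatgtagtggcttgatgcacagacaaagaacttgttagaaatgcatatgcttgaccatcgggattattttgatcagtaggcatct

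ABCA4 clears retinoid conjugates in photoreceptors (ENSG00000198691; chromosome 1, 93992835 to 94121132, minus strand). Its signal was 0.08, 0.3 and 0.89 in the parental libraries against 0.36, 0.96 and 1.2 in the resistant ones. The lines overlapped, since parental library 3 lay above resistant library 1. The means were 0.423 ± 0.419 and 0.840 ± 0.433, a ratio of 1.98 with all libraries and of 4.42 without parental library 3. With no filter its log2 fold change on log2(value + 1) was 0.38 and was not called (limma adjusted p = 0.182). In the authors' deposited table it was 3.40-fold higher (adjusted p = 0.00274), 1.71 times the ratio of the means of its own library values.

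ABCC9 and ABCG4 are neither drug pumps of the B, C and G subfamilies nor A-subfamily genes, and both had higher values in the resistant line. ABCC9 encodes SUR2, the regulatory subunit of ATP-sensitive potassium channels rather than a pump (chromosome 12, 21797401 to 21942529). Its signal was 0.86, 1.1 and 0.93 in the parental libraries against 3.13, 3.16 and 3.3 in the resistant ones. That is 3.32-fold higher, with 1.10 on log2(value + 1) (SE 0.118, limma adjusted p = 9.89e-05). The libraries of each line were tightly grouped.

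ABCG4, a relative of the sterol exporter ABCG1 (chromosome 11, 119149012 to 119162653), had a listed value of 0 throughout the parental line and of 0.08, 0.06 and 0.07 in the resistant ones. No ratio of means can be given for it. The authors' deposited table gives it a fold of 22.0 at an adjusted p of 0.0483.

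Across the rows, the direction of the authors' fold was that of the library values in 12 of 12. Both come from the same 6 libraries, so this adds no evidence. Over all 4439 genes, 2392 were higher by the authors' fold and 2390 by the library means. Parental library 3 moved with several rows. On log2(value + 1) it was above the mean of parental libraries 1 and 2 by 0.52 in ABCC2, 0.44 in ABCA12, 0.53 in ABCC6 and 0.55 in ABCC6P2. It was below their mean in ABCB1 (-0.22), ABCA1 (-0.32) and ABCC6P1 (-0.74). Over all tested genes the median of this shift was 0.13 and the median of its size 0.35, so shifts like these are common in the table. Without parental library 3 the 7 higher and 2 lower calls were again 7 and 2.

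**Figure D2:**
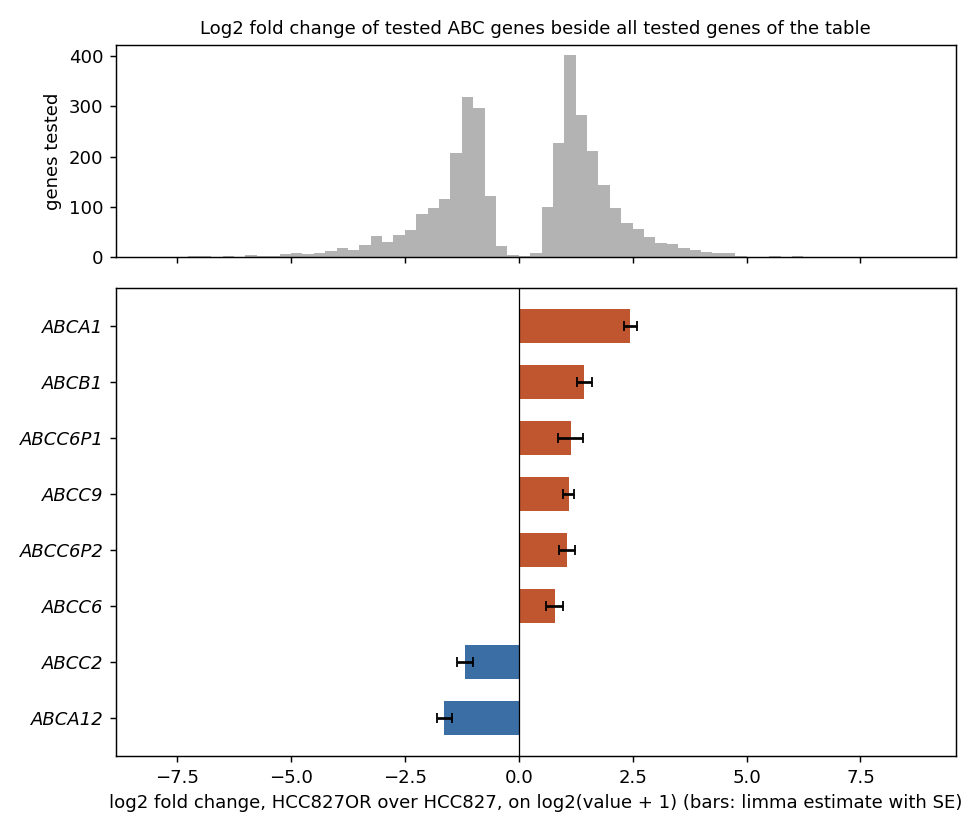
Limma log2 fold changes (HCC827OR over HCC827, on log2(value + 1)) of 8 tested ABC rows with their SE, below a histogram of the same measure over the 3332 genes tested. The ABC rows run from -1.63 for ABCA12 to 2.45 for ABCA1, and the histogram is that of a table of genes picked for differing.

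Genes that work beside these transporters were taken from lists of pathway members and are given with the same test. Each count by direction is to be read against all tested genes, of which 52.5% were called higher and 45.0% lower. Being called at all carries little, since 97.5% of tested genes were and the lists hold the table's genes. Genes that reached a signal of 1 in fewer than 3 libraries of the lower line passed the filter through the line in which they were high, and their direction was fixed by it. These were NKX2-1 and SLC34A2 among the surfactant genes, PLTP and MYLIP among the LXR targets, ZEB2, SNAI2 and FOS among the regulators, and SLC7A11 and GSTA4 among the glutathione genes. RUNDC3B, HERC5 and NIPSNAP3B, neighbours described below, also passed in this way, as did GRHL2, ESRP1, SFTA2, LUM, DCN and PECAM1 among the markers. Surfactant and lamellar body genes, the setting of A-subfamily transport in the lung, were called lower for 5 of 5 tested, with 6 of the 11 listed present and a median log2 fold change of -1.87. Lung lineage markers, a list that shares NAPSA and NKX2-1, were lower in 3 of 3 tested, with sums of 351 to 361 in parental and 1.84 to 5.14 in resistant libraries. The aspartic protease NAPSA fell 86.3-fold, from 146 ± 2.08 to 1.69 ± 0.635, and the phospholipid acyltransferase LPCAT1 fell 3.70-fold, from 498 ± 59.6 to 135 ± 4.82. The lung lineage factor NKX2-1 fell from 14.0 ± 1.73 to 0.253 ± 0.231, a fall of 55.3-fold, or of 117-fold without resistant library 3. The phosphate transporter SLC34A2 fell from 2.38 ± 0.524 to 0.0100 ± 0.0100. The surfactant transporter ABCA3 was not analysed here, nor were TAP1, TAP2, TAPBP and CFTR, the 4 listed genes that belong to or work with the family under other names.

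LXR targets other than ABCA1 went both ways, with 4 of 6 tested lower and 2 higher (6 of 11 members in the table, median log2 fold change -1.61). The desaturase SCD fell from 415 ± 50.6 to 29.5 ± 0.956, the lipogenic regulator SREBF1 fell from 119.5 ± 10.2 to 28.7 ± 2.67, and the ubiquitin ligase MYLIP fell 7.23-fold, from 4.46 ± 0.775 to 0.617 ± 0.0808. The phospholipid transfer gene PLTP rose from 0.0633 ± 0.0551 to 2.85 ± 0.659. APOE, which encodes an acceptor of exported lipid, rose 2.60-fold, from 6.78 ± 3.38 to 17.6 ± 1.67, and was chosen after its values were seen. APOC1, also chosen after its values were seen, had 15.35, 46.16 and 8.95 in the parental libraries against 4.76, 9.14 and 5.04 in the resistant ones, so the lines overlapped. It was 3.72-fold lower (limma adjusted p = 0.0326), or 1.92-fold without parental library 2. Its call was lost without parental library 1, resistant library 1 or resistant library 3 (limma adjusted p of 0.0559, 0.0936 and 0.0899).

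**Figure D3:**
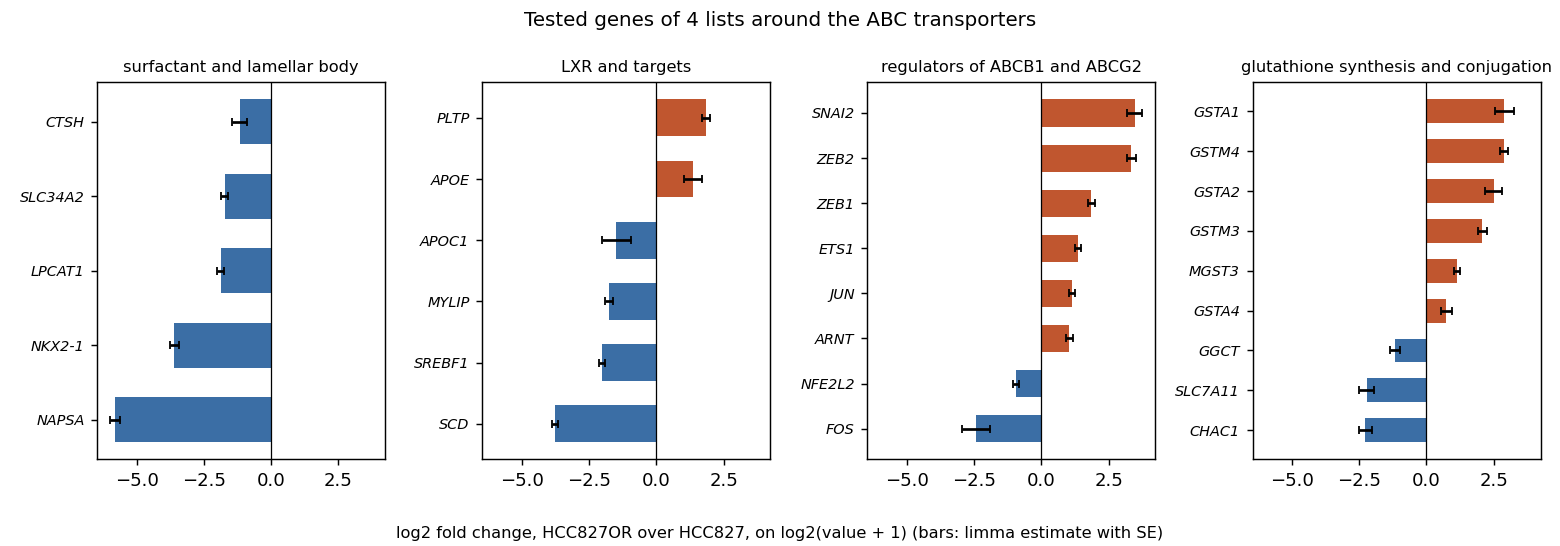
Limma log2 fold changes with SE of the tested genes of 4 lists, HCC827OR over HCC827 on log2(value + 1). The 5 surfactant and lamellar body genes lie below 0, whereas the other lists hold genes on both sides.

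Factors known as regulators of ABCB1 or ABCG2 rose in 6 of 8 tested and fell in 2 (9 of 22 members in the table, median log2 fold change 1.26). The repressors ZEB2 and ZEB1, which bind CACCTG E-boxes, rose in the resistant line. ZEB2 went from 1.19 ± 0.378 to 21.1 ± 0.778, 17.7-fold, and ZEB1 from 2.27 ± 0.180 to 10.8 ± 0.943, 4.78-fold. SNAI2, of the SNAI family, rose 15.0-fold, from 2.19 ± 1.10 to 32.7 ± 0.975, and ETS1 rose 2.62-fold, from 55.8 ± 5.38 to 146 ± 2.55. AP-1 subunits moved apart. JUN rose 2.23-fold, from 46.5 ± 1.33 to 104 ± 2.62, while FOS had 5.02, 4.2 and 21.13 in the parental libraries against 0.6, 0.92 and 0.46 in the resistant ones, a fall of 15.3-fold, or of 6.98-fold without parental library 3. NFE2L2, which encodes the oxidative stress factor NRF2, fell 1.96-fold, from 88.1 ± 6.90 to 45.0 ± 0.482. JUN, FOS and NFE2L2 were chosen after their values were seen.

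Glutathione genes matter to ABCC pumps because these export glutathione conjugates. Of 9 tested, 6 rose and 3 fell (9 of 26 members in the table, median log2 fold change 1.14). The 6 that rose were glutathione transferases. GSTM4 rose 11.4-fold, from 1.56 ± 0.180 to 17.8 ± 1.82, GSTM3 rose 4.29-fold, from 29.2 ± 5.69 to 125 ± 13.4, and MGST3 rose from 95.4 ± 11.2 to 210 ± 2.00. GSTA1 and GSTA2, which rose 7.59-fold and 6.16-fold, are near-identical copies, so reads may be split between them. The 3 that fell act in glutathione supply and turnover. The glutathione-degrading CHAC1 fell 5.66-fold, from 34.3 to 6.07, the cystine importer SLC7A11 fell 8.79-fold, from 8.79 ± 3.35 to 1.00 ± 0.115, and GGCT fell 2.33-fold, from 83.4 ± 19.3 to 35.8 ± 2.84. SLC7A11, GGCT, GSTA1 and GSTA2 were chosen after their values were seen.

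The neighbourhood of each ABC gene was looked up to see whether nearby genes of the table moved the same way. Of 11 protein-coding genes that start within 1 Mb of ABCB1, 2 were in the table. RUNDC3B, which starts 86 kb away on the opposite strand, rose 6.97-fold, from 0.727 ± 0.110 to 5.07 ± 0.279 (limma adjusted p = 1.30e-05). Its span overlaps that of ABCB1 over 85776 bases, and the 2 genes share 0 annotated exon bases. The use of strand is not given, and whether reads from introns of one gene were counted for the other was not tested. The metalloreductase gene STEAP4, 594 kb away, was 2.37, 1.48 and 0.93 in the parental libraries against 0.19, 0.31 and 0.07 in the resistant ones and was too low to be tested. Of the list of 12 genes at the ABCB1 locus these same 2 were present, and the others, ABCB4 among them, were not analysed here.

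Elsewhere the neighbours were mixed for most members, and 2392 of all 4439 genes were higher and 2047 lower in the authors' deposited table, so these small counts show nothing particular to a locus. Around ABCG2, 4 of 21 protein-coding genes within 1 Mb were in the table, and all 4 were lower by the authors' values. They include HERC5 at 226 kb, 2.94-fold lower. The secreted phosphoprotein gene SPP1 at 256 kb was 4.29-fold lower, or 2.73-fold without parental library 3. Around ABCC2, 6 of 23 such genes were in the table, and 4 of these 6 were lower. The nearest was DNMBP at 227 kb, which went from 16.6 ± 2.51 to 5.74 ± 0.272. Around ABCA1, 2 of 16 were in the table and both were higher, with NIPSNAP3B at 164 kb going from 0.270 ± 0.0557 to 1.17 ± 0.151. Around ABCA12, 2 of 8 protein-coding genes and 1 non-coding RNA were in the table. Of these 3, 2 were higher, the opposite of ABCA12 itself, with the fibronectin gene FN1 at 298 kb rising 6.24-fold.

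**Figure D4:**
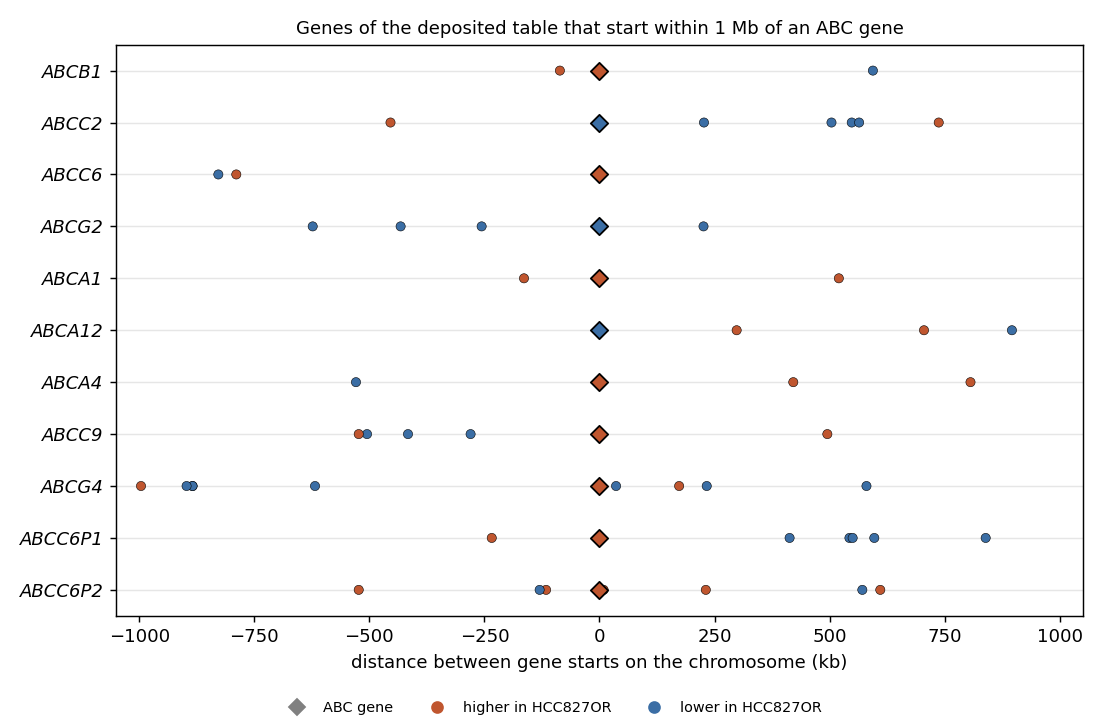
Distance in kb between the start of each of 11 ABC rows (diamond) and the starts of table genes within 1 Mb (circles), coloured by direction in the authors' deposited table. ABCB1 has 1 higher and 1 lower neighbour, both neighbours of ABCA1 are higher, and the 4 neighbours of ABCG2 are lower.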

How the data were processed

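The deposited table gives, for 6 libraries made with a TruSeq kit per the labels, a normalized expression signal by the authors, and a mean per line. The authors' fold (ratio), its log2 value and their p-values, raw and adjusted, stand beside it in the deposited table. The unit of the signal, the test, annotation, human build and use of strand are not given in the sources used here. The submitters' processing notes name the aligner Bowtie 0.12.2 and the mouse build mm8, which conflicts with the human gene IDs. Symbols were matched for 4414 of 4439 IDs, and positions and exons are those of GENCODE release 29 on GRCh38.

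Groups came from the sample titles. The test was limma 3.58.1 with a trend (R 4.3.3), run on log2(value + 1). A gene entered if 3 or more libraries reached a value of 1, as 3332 genes did. This scale understates changes of low genes. Folds in the text are ratios of group means. The test was checked on simulated data in which most genes did not change. Such data cannot show how it behaves in a table of genes picked for differing. No batch is given in the labels. Python 3.11.15 with pandas 2.3.3 was used for the rest, including the 50-base words and the 250-base promoter windows, which RefSeq gave for 8 of the 12 ABC rows.

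The counts include 1 tested ABC row that is not reported here by itself. The ABC rows and the gene lists were chosen with earlier results of these data known. The rule for named genes took all ABC rows, up to 4 genes with the smallest adjusted p in each list and the nearest table genes, up to 4 around ABCB1 and 2 around others. Genes named beyond it are marked, or are neighbours given to show a direction. Alternatives changed the pseudocount, filter, scaling, trend or size threshold, added a replicate block, or left out each library.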

Additional observations from a re-analysis of the deposited data

How the results depend on the processing

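With genes filtered at a signal of at least 5 in at least 3 libraries, 1999 genes of the table were called in place of 3249, and 4 ABC rows were called higher in place of 7, since fewer rows were tested. Under the other alternatives, the count of ABC rows called higher was 6 or 7 and that called lower 2, or 3 with no filter, where ABCG2 joined. Leaving out 1 library gave 3160 to 3266 called genes, and 7 higher and 2 lower ABC rows each time. Asking in addition for a log2 fold change of at least 1 in size left 6 higher and 2 lower ABC rows, since ABCC6 was at 0.79, and 2544 genes. Apart from that and the rows no longer tested, tested ABC rows kept their direction and call under the alternatives run. ABCC6 had a log2 fold change of 0.59 to 0.97 over them and a largest limma adjusted p of 0.0275, and ABCB1 ranged from 1.20 to 1.54. The 1.20 was with libraries scaled to the same sum, where ABCC2 was at -1.41 in place of -1.17. The median log2 fold change of all tested genes, 0.74, was 0.59 with libraries scaled to the same sum, 1.08 with a pseudocount of 0.1, 0.32 with no filter and -0.69 with the filter at 5, over the genes each setting tested. With the replicate block 3258 genes were called. Equal numbers did not deviate together (correlations 0.0256, 0.0258 and -0.0281). With 3 libraries per line this cannot tell whether they shared a culture or day. Depth is unknown, which limits what ABCG2, ABCA4 and ABCG4 can show.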
